A study of Arabidopsis thaliana with 6 samples.

Results

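Glutathione S-transferase (GST) genes were examined in the leaf RNA-seq libraries of a study on salicylic acid (SA) signaling in Arabidopsis. All loci whose deposited description contains the words glutathione S-transferase, in any case, were taken, which gave 52 of the 22183 loci with reads in the tables. By their names, 26 loci belonged to the tau class (GSTU), 12 to the phi class (GSTF), 3 to the theta class (GSTT), 2 to the zeta class (GSTZ) and 1 to the lambda class (GSTL). A further 2 loci are described as translation elongation factor EF1B genes with a C-terminal domain like that of GSTs, and 6 loci had no class in their names. GST genes described in other words, such as GSTL1, are not included. Each locus was represented by its gene model with the most reads.

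GSTs join the peptide glutathione to reactive or toxic small molecules, so that the conjugates can be moved into the vacuole and broken down there. The tau and phi classes are large families in plants, known for detoxifying herbicides and for responding to pathogens, SA and oxidative stress, and some members carry or bind flavonoids, indoles and hormones. Several tau and phi promoters hold as-1/ocs-like elements, which are bound by TGA transcription factors, the DNA-binding partners of the SA coactivator NPR1.

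Leaves of 4-week-old plants grown in short days were sprayed with water or with 300 µM INA, a synthetic SA analog, 12 h before harvest. The libraries used were wild-type Col with water (Col), Col with INA (Col+INA), the npr1-1 mutant with INA (npr1-1+INA) and the hac1-2 hac5-2 double mutant with INA (hac1/5+INA). All 3 genotypes are in the Columbia background. npr1-1 carries an amino acid exchange in NPR1 and still makes the transcript, and hac1/5 carries mutant alleles of the histone acetyltransferases HAC1 and HAC5 of the CBP/p300 family. Each condition has 1 library made from the pooled RNA of 3 experiments, so no value has a replicate, and water-treated npr1-1 and hac1/5 were not analysed here. A difference between a mutant and Col+INA therefore cannot be told apart from one that was present before the treatment. A treated mutant differs from water-treated Col in genotype and in treatment, and their parts cannot be told apart. Treated npr1-1 and treated hac1/5 stand for the INA-treated libraries of the mutants below.

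The 4 libraries held 6698569 to 7146973 reads on gene models. A gene was called higher or lower when an exact binomial test, applied to its reads in a pair of libraries, gave an adjusted p (Benjamini-Hochberg, over all gene models in that pair) of at most 0.01 and the reads, scaled by the library sums, differed at least 2-fold. The test compares libraries and not conditions, and all intervals given are 95% intervals that cover counting error only. Comparisons with Col+INA share that library, and those with Col share Col. HAC5 had 272, 122 and 248 reads in water-treated Col, Col+INA and treated npr1-1 and 2 in treated hac1/5, whereas HAC1 had 69, 28, 63 and 25 reads, a count that does not separate the double mutant from Col+INA. The SA marker PR1 had 4 reads in water-treated Col, 16158 in Col+INA, 2 in treated npr1-1 and 96 in treated hac1/5. The 5 leaf markers summed to 12685 RPKM (reads divided by model length and library sum) in water-treated Col, 6548 in Col+INA, 10602 in treated npr1-1 and 11518 in treated hac1/5. Among them the chlorophyll-binding protein gene CAB2 was called 2.68-fold lower in Col+INA than in water-treated Col and 3.10-fold higher in treated hac1/5 than in Col+INA. SBPASE was called 2.18-fold higher in treated npr1-1 than in Col+INA. In treated hac1/5 it was called 2.52-fold lower than in water-treated Col and 2.95-fold lower than in treated npr1-1. The sums therefore hide markers that moved in different directions, and the part of these differences in the results was not tested. The 3 listed of 5 root markers summed to at most 1.78 RPKM. PISTILLATA, a flower gene, had 9 reads in treated hac1/5 and 0 in the other libraries, and its part in the results was not tested. In whole leaves, fewer cells of a type and less RNA per cell cannot be told apart.

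GST genes took 0.311% (0.307 to 0.315) of the reads in Col and 1.08% (1.07 to 1.09) in Col+INA. The share was 0.427% (0.422 to 0.432) in treated npr1-1 and 1.01% (1.01 to 1.02) in treated hac1/5. Most of this difference lay in the phi class. Phi genes took 0.0762% of the reads in water-treated Col, 0.759% in Col+INA, 0.129% in treated npr1-1 and 0.779% in treated hac1/5, so that Col+INA was 9.96 times Col (9.68 to 10.2) and treated npr1-1 was 5.88-fold below Col+INA (5.75 to 6.01). The larger tau class moved less as a sum, with 0.183% in Col and 0.245%, 0.229% and 0.171% in Col+INA, treated npr1-1 and treated hac1/5. These sums rest on few genes. GSTF2 alone held 47.0% of all GST reads in Col+INA, and without it the phi sum was still 3.77 times higher in Col+INA than in water-treated Col (3.65 to 3.90) and 2.43-fold lower in treated npr1-1 than in Col+INA (2.37 to 2.50). Without GSTU19, the tau sum was 1.19-fold lower in Col+INA than in water-treated Col (1.16 to 1.22) and 1.53-fold lower in treated hac1/5 than in Col+INA (1.48 to 1.58). Both genes led their class in Col+INA, so leaving them out tends to lower the ratio of Col+INA to Col. GSTU17 held 30.5% of the remaining tau reads in Col, with 3546 reads against 1325 in Col+INA. The lower tau sum thus does not describe each of the other tau genes.

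**Figure D1:**
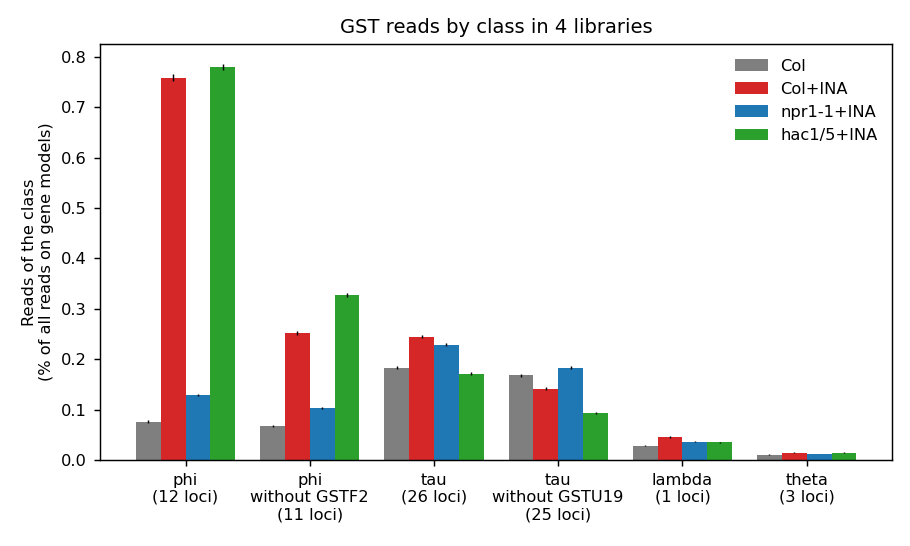
Reads of GST classes as a percentage of all reads on gene models (vertical axis, from 0) in the 4 libraries, with and without GSTF2 and GSTU19, the most abundant phi and tau genes in Col+INA. Bars are single libraries and error bars are exact 95% Poisson intervals. The phi bars of Col+INA (0.759%) and hac1/5+INA (0.779%) stand above those of Col (0.0762%) and npr1-1+INA (0.129%), while the tau bars lie between 0.171% and 0.245%.

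Counted by gene, 18 of the 50 GST loci with reads in Col or Col+INA were called higher in Col+INA (background 13.9% of 21105 loci) and 2 were called lower (background 8.49%). The 18 were 10 tau genes, 6 phi genes and 2 loci without a class, and both of the lower genes were tau genes. The median log2 ratio of Col+INA over Col was 0.87 over the 40 GST loci with at least 10 reads in either library, 1.72 over 9 phi genes and 0.95 over 21 tau genes, against 0.18 over all loci filtered in the same way. A locus can pass this filter through the library in which it is high, so these medians describe the loci that passed. In treated npr1-1, 11 GST loci were called lower than in Col+INA (background 13.1%), 6 tau and 5 phi, and 3 were called higher (background 10.7%). In treated hac1/5, 8 were called lower than in Col+INA (background 5.79%), 5 tau genes, 2 phi genes and 1 EF1B gene, and 3 tau genes were called higher (background 3.81%). The median log2 ratio of the phi genes was -1.39 for treated npr1-1 over Col+INA and -0.06 for treated hac1/5 over Col+INA, and that of the tau genes was -0.01 and -0.40. Over all loci these medians were -0.07 and 0.13.

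Among the phi genes, GSTF2 (AT4G02520), a GST that binds camalexin and other indoles, was the most abundant GST in Col+INA and in treated hac1/5. Its reads were 659 in Col, 36237 in Col+INA, 1719 in treated npr1-1 and 31382 in treated hac1/5, or 96.3, 5127, 259 and 4569 RPKM. Col+INA was 53.2 times Col (49.3 to 57.6) and treated npr1-1 was 19.8-fold below Col+INA (18.8 to 20.7), whereas treated hac1/5 over Col+INA had a log2 ratio of -0.17. In treated npr1-1 it was 2.70 times the level in water-treated Col (2.46 to 2.95). GSTF7 (AT1G02920), a pathogen-responsive phi gene, was likewise low in Col and treated npr1-1, with 39, 3957, 76 and 6115 reads in water-treated Col, Col+INA, treated npr1-1 and treated hac1/5. It was 98.3 times higher in Col+INA than in water-treated Col (71.7 to 138) and 48.8-fold lower in treated npr1-1 than in Col+INA (38.9 to 62.1). Its neighbour GSTF6 (AT1G02930), an enzyme of camalexin synthesis, had 3, 518, 15 and 749 reads in that order of libraries. Col+INA was 167 times Col, with a wide interval of 56.9 to 813 because Col had 3 reads, and treated npr1-1 was 32.4-fold below Col+INA (19.4 to 58.3). For both neighbours treated hac1/5 over Col+INA was not called, with log2 ratios of 0.67 for GSTF7 and 0.57 for GSTF6.

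GSTF3 (AT2G02930), the close copy of GSTF2, was found at a low level only, with 0, 24, 1 and 23 reads in water-treated Col, Col+INA, treated npr1-1 and treated hac1/5. It was at least 7.75-fold higher in Col+INA than in water-treated Col, and 22.5-fold lower in treated npr1-1 than in Col+INA (3.67 to 925). Of the 50-base windows of its coding sequence, 59.0% matched GSTF2 within 2 mismatches, and the same held between GSTF6 and GSTF7 for 54.2% and 54.0% of their windows. How reads that fit 2 genes were counted is not stated in the sources used here, so the split of reads within these pairs is uncertain. The counts and medians of the phi class take each of these genes separately. The coding sequences of GSTF2 and GSTF3 were 94.5% identical, and those of GSTF6 and GSTF7 94.3%.

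GSTF8 (AT2G47730), a widely used marker of early SA and oxidative responses, was already abundant without INA. It had 3027 reads in water-treated Col, 10315 in Col+INA, 5048 in treated npr1-1 and 13566 in treated hac1/5. Col+INA was 3.30 times Col (3.17 to 3.44). In treated npr1-1 its level lay between both Col libraries, with a log2 ratio of -0.94 to Col+INA and of 0.78 to Col, and neither passed the 2-fold threshold. GSTF10 (AT2G30870), known as the dehydration-induced ERD13, had 638, 1793, 642 and 1669 reads in water-treated Col, Col+INA, treated npr1-1 and treated hac1/5. Here treated npr1-1 was 2.62-fold below Col+INA (2.39 to 2.87) and differed from Col by a log2 ratio of 0.06. Its neighbour GSTF9 (AT2G30860) ranged from 601 to 1222 reads and was not called in any comparison, but was called lower in treated hac1/5 than in Col+INA with TMM factors or DESeq2's size factors.

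Of the remaining phi genes, 2 that act in secondary metabolism did not pass the test with INA in Col and were low in treated hac1/5. GSTF12 (AT5G17220), known as TRANSPARENT TESTA 19 and needed for anthocyanins to reach the vacuole, had 49 reads in water-treated Col, 46 in Col+INA, 142 in treated npr1-1 and 4 in treated hac1/5. It was 3.29 times higher in treated npr1-1 than in Col+INA (2.35 to 4.70) and 11.2-fold lower in treated hac1/5 than in Col+INA (4.08 to 42.7). GSTF11 (AT3G03190), which is linked to the synthesis of aliphatic glucosinolates, had 105, 97, 85 and 23 reads in water-treated Col, Col+INA, treated npr1-1 and treated hac1/5. Only the last library stood apart, 4.10-fold below Col+INA (2.58 to 6.77). GSTF4, GSTF5 and GSTF13 had at most 2 reads in any library.

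**Figure D2:**
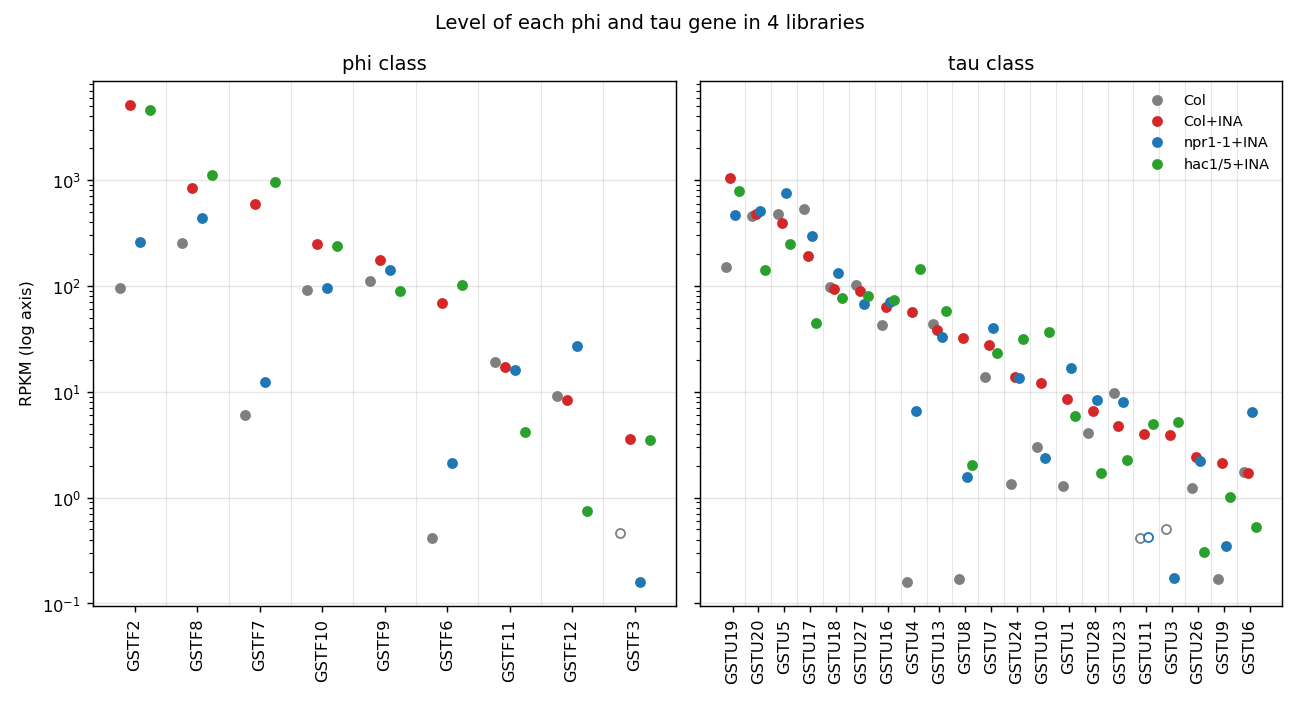
RPKM (vertical log axis) of the phi genes (left) and tau genes (right) with at least 10 reads in a library, ordered by their level in Col+INA, with 1 point per library. Open circles stand for 0 reads and are drawn at the level that 3 reads would give. GSTF2 spans 96.3 to 5127 RPKM, and GSTU4 spans 0.159 to 144 RPKM.

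Among the tau genes, GSTU19 (AT1G78380), a major detoxifying GST of leaves, carried 42.3% of the tau reads in Col+INA. It had 1045 reads in water-treated Col, 7400 in Col+INA, 3092 in treated npr1-1 and 5448 in treated hac1/5. Col+INA was 6.86 times Col (6.43 to 7.32). Treated npr1-1 was 2.24-fold below Col+INA (2.15 to 2.34) and 3.06 times water-treated Col (2.85 to 3.28). In treated hac1/5 the log2 ratio to Col+INA was -0.40 and was not called. Both calls of GSTU19 in treated npr1-1, against Col+INA and against Col, were lost when a biological variation of 0.2 was assumed.

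Several tau genes with few reads in Col were also low in treated npr1-1. GSTU4 (AT2G29460) had 1 read in water-treated Col, 367 in Col+INA, 40 in treated npr1-1 and 906 in treated hac1/5. Its ratio of Col+INA to Col was 355 with an interval of 63.4 to 14075, and it was 8.60-fold lower in treated npr1-1 (6.19 to 12.2) and 2.54 times higher in treated hac1/5 (2.25 to 2.88) than in Col+INA. GSTU10 (AT1G74590) was also highest in treated hac1/5, with 21, 89, 16 and 257 reads in the same order of libraries. It was 4.10 times higher in Col+INA than in water-treated Col (2.53 to 6.95), 5.21-fold lower in treated npr1-1 than in Col+INA (3.04 to 9.51) and 2.97 times higher in treated hac1/5 than in Col+INA (2.33 to 3.83). GSTU3 (AT2G29470), beside GSTU4 on chromosome 2, had 0, 24, 1 and 31 reads in water-treated Col, Col+INA, treated npr1-1 and treated hac1/5. GSTU11 (AT1G69930) had 0, 30, 0 and 36 reads, which is at least 9.68-fold higher in Col+INA than in water-treated Col and at least 9.37-fold lower in treated npr1-1 than in Col+INA. For GSTU3 the rise was at least 7.75-fold, and the fold was 22.5 (3.67 to 925) for the lower level in treated npr1-1.

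GSTU8 (AT3G09270) was called lower than in Col+INA in both mutants. It had 1 read in water-treated Col, 197 in Col+INA, 9 in treated npr1-1 and 12 in treated hac1/5. Its ratio of Col+INA to Col was 191 (33.8 to 7573). It was 20.5-fold lower in treated npr1-1 (10.6 to 45.5) and 16.0-fold lower in treated hac1/5 (8.93 to 31.4) than in Col+INA, and the log2 ratio between both mutants was 0.36 and not called. GSTU9 (AT5G62480) had 1, 13, 2 and 6 reads in water-treated Col, Col+INA, treated npr1-1 and treated hac1/5, and only the ratio of Col+INA to Col was called, at 12.6 (1.89 to 535). That call was lost when a biological variation of 0.2 was assumed.

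Another 4 tau genes were called higher in treated npr1-1 than in water-treated Col and were not called lower than in Col+INA. GSTU24 (AT1G17170), an enzyme that detoxifies the explosive trinitrotoluene, had 8 reads in water-treated Col, 84 in Col+INA, 78 in treated npr1-1 and 187 in treated hac1/5. It was 10.2 times higher in Col+INA than in water-treated Col (4.93 to 24.3), with a log2 ratio of -0.01 for treated npr1-1 over Col+INA, and 2.29 times higher in treated hac1/5 than in Col+INA (1.76 to 3.0), a call that was lost with a biological variation of 0.2 or a log2 threshold of 1.5. GSTU1 (AT2G29490) had 9, 61, 112 and 41 reads in water-treated Col, Col+INA, treated npr1-1 and treated hac1/5. Its 3 INA-treated libraries all lay above Col, by 6.56 times in Col+INA (3.24 to 15.0), 12.9 times in treated npr1-1 (6.54 to 28.9) and 4.54 times in treated hac1/5 (2.17 to 10.6). GSTU7 (AT2G29420) had 84, 175, 237 and 143 reads, and its ratio of Col+INA to Col was 2.02 (1.55 to 2.65), just past the threshold. With edgeR's TMM factors or DESeq2's size factors as library scaling, this call was lost. GSTU6 (AT2G29440) had 10 reads in water-treated Col and in Col+INA, 35 in treated npr1-1 and 3 in treated hac1/5. It was 3.73 times higher in treated npr1-1 than in Col+INA (1.81 to 8.46), and that call was lost with an assumed biological variation of 0.2.

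The most abundant tau genes of water-treated leaves were not called higher with INA. GSTU17 (AT1G10370), known as ERD9 and linked to light and drought responses, led all GST genes in Col with 533 RPKM. It had 3546 reads in water-treated Col, 1325 in Col+INA, 1899 in treated npr1-1 and 301 in treated hac1/5. Col+INA was 2.76-fold below Col (2.59 to 2.95), and treated hac1/5 was a further 4.28-fold below Col+INA (3.77 to 4.86). GSTU20 (AT1G78370), which binds and enhances the jasmonate-conjugating enzyme FIN219/JAR1, had 2851, 3080, 3061 and 881 reads in water-treated Col, Col+INA, treated npr1-1 and treated hac1/5. The first 3 libraries differed by log2 ratios of 0.15 or less, and treated hac1/5 was 3.40-fold below Col+INA (3.15 to 3.67). GSTU5 (AT2G29450) had 1618 to 4705 reads, lowest in treated hac1/5 and highest in treated npr1-1, and was called only between both mutants, 3.01-fold lower in treated hac1/5 (2.85 to 3.19). With TMM factors or DESeq2's size factors it was also called lower in treated hac1/5 than in water-treated Col.

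Lower reads in treated hac1/5 were also found among scarcer tau genes. GSTU28 (AT1G53680) had 19, 32, 38 and 8 reads in water-treated Col, Col+INA, treated npr1-1 and treated hac1/5, which is 3.89-fold lower in treated hac1/5 than in Col+INA (1.75 to 9.76). GSTU26 (AT1G17190) had 8, 16, 14 and 2 reads, and its fold below Col+INA was 7.77 (1.83 to 69.7). GSTU23 (AT1G78320) had 56, 28, 44 and 13 reads and was called 2.07-fold lower in Col+INA than in water-treated Col (1.29 to 3.38), a call that was lost with a biological variation of 0.2, with a log2 threshold of 1.5 and on the log2(RPKM + 1) scale. Its log2 ratio of treated hac1/5 over Col+INA was -1.07 and was not called. The calls of GSTU26 and GSTU28 against Col+INA were lost when a biological variation of 0.2 was assumed. GSTU13, GSTU16, GSTU18 and GSTU27 had between 242 and 803 reads in the 4 libraries and were not called in any comparison, and GSTU2, GSTU12, GSTU14, GSTU22 and GSTU25 had at most 6 reads.

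Comparisons of a treated mutant with water-treated Col change genotype and treatment together. In treated npr1-1, 10 GST loci were higher than in water-treated Col (background 3.77%) and 0 were lower (background 1.77%). The 10 were GSTU1, GSTU4, GSTU6, GSTU7, GSTU19, GSTU24, GSTF2, GSTF7, GSTF12 and AT5G12110, with ratios to Col between 2.01 for GSTF7 and 41.3 for GSTU4, whose interval of 7.0 to 1673 rests on 1 read in Col. With a biological variation of 0.2 or 0.4, 3 and 0 of the 10 were called. The call of GSTF7 was also lost with TMM factors or DESeq2's size factors, and that of AT5G12110 with DESeq2's size factors. In treated hac1/5, 16 loci were higher than in water-treated Col (background 16%), 8 tau, 6 phi and 2 without a class, and 6 were lower (background 9.6%). The 6 lower loci were GSTU17, GSTU20, GSTU23, GSTF11, GSTF12 and AT5G12110, led by GSTF12 at 12.3-fold (4.51 to 46.9) and GSTU17 at 11.8-fold (10.5 to 13.3).

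The direct comparison of both INA-treated mutants was added after seeing the data. In treated hac1/5, 12 GST loci were higher than in treated npr1-1 (background 14.6%) and 11 were lower (background 11.1%). Phi genes leaned to one side, with 6 higher, 2 lower and a median log2 ratio of 1.37, and tau genes to the other, with 5 higher, 8 lower and a median of -0.36, against 0.19 over all loci. The 6 higher phi genes include the pairs GSTF2 with GSTF3 and GSTF6 with GSTF7, whose split of reads is uncertain. GSTF7 was 77.6 times higher in treated hac1/5 than in treated npr1-1 (61.9 to 98.6), GSTF6 48.2 times (29.0 to 86.5), GSTU3 29.9 times (4.98 to 1219), GSTF3 22.2 times (3.60 to 914) and GSTU4 21.8 times (15.9 to 30.8). The wide intervals of GSTU3 and GSTF3 rest on 1 read in treated npr1-1. GSTF12 lay at the other end, 36.8-fold lower in treated hac1/5 than in treated npr1-1 (14.1 to 137), followed by GSTU6 at 12.1-fold (3.81 to 61.5).

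**Figure D3:**
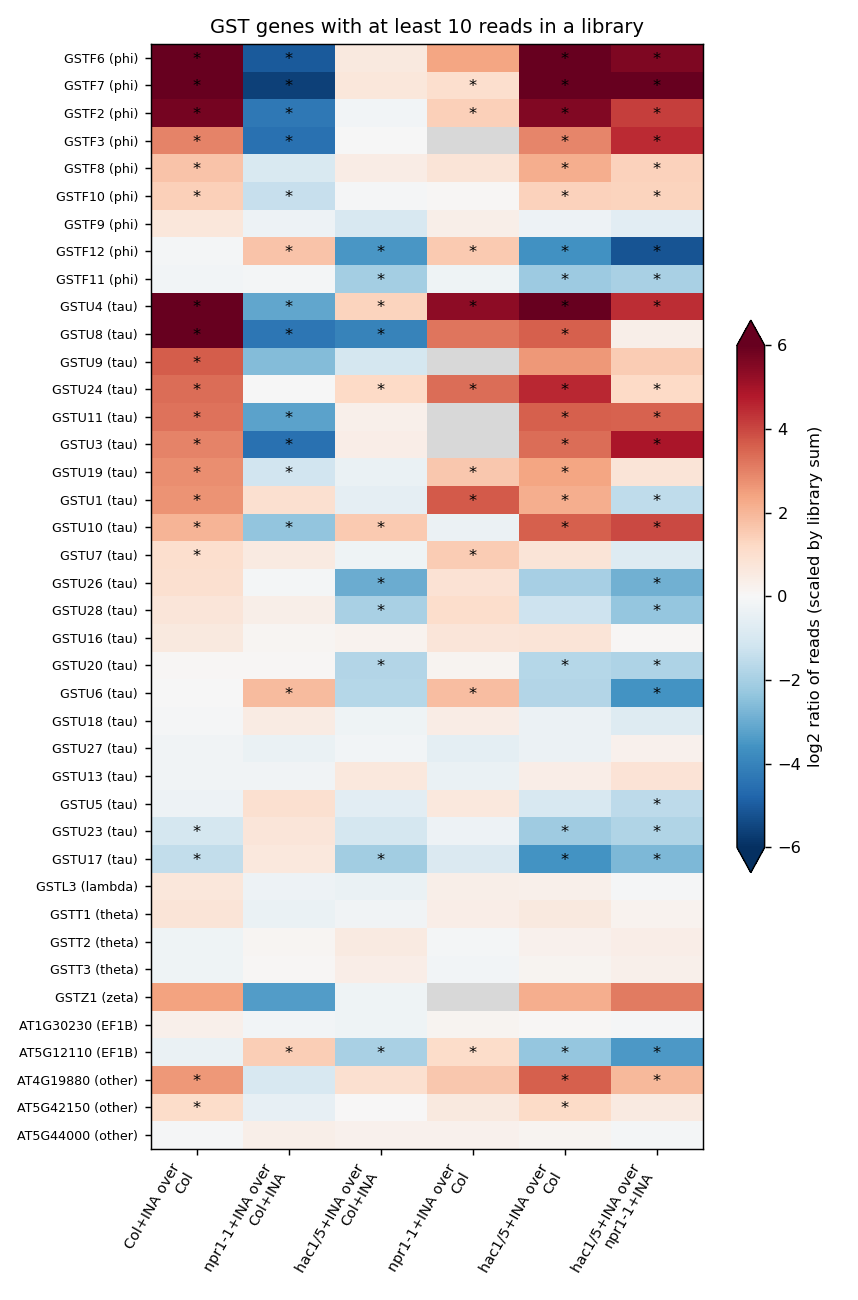
Log2 ratio of reads (colour, red for higher and blue for lower in the first-named library) of the GST genes with at least 10 reads in a library, in 6 comparisons, grouped by class and ordered by the response to INA in Col. Asterisks mark calls, grey cells have at most 3 reads in both libraries, and counts of 0 were set to 3 reads. The top phi genes are red for Col+INA over Col and blue for npr1-1+INA over Col+INA, while GSTU17, GSTU20, GSTF11 and GSTF12 are blue for hac1/5+INA over Col+INA.

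Outside the tau and phi classes, changes were fewer. AT5G12110, an EF1B gene of the machinery that lengthens peptide chains on the ribosome, had 303 reads in water-treated Col, 241 in Col+INA, 624 in treated npr1-1 and 60 in treated hac1/5. It was 2.76 times higher in treated npr1-1 (2.38 to 3.22) and 3.90-fold lower in treated hac1/5 (2.93 to 5.27) than in Col+INA. The other EF1B gene, AT1G30230, stayed between 150 and 194 reads and was not called. AT5G42150, described only as a GST family protein, had 145, 324, 213 and 321 reads in water-treated Col, Col+INA, treated npr1-1 and treated hac1/5. Its ratio of Col+INA to Col was 2.16 (1.77 to 2.65), a call that was lost with TMM factors or DESeq2's size factors. AT4G19880 had 4, 25, 12 and 48 reads in that order of libraries and was 6.05 times higher in Col+INA than in water-treated Col (2.09 to 23.9), a call that was lost with a biological variation of 0.2. GSTL3 (AT5G02790), the lambda member, whose class removes glutathione from flavonol conjugates, had 1963 to 3257 reads and was not called. The theta genes, with peroxidase activity toward lipid hydroperoxides, were not called either, with 484 to 867 reads for GSTT1, 97 to 124 for GSTT3 and 82 to 114 for GSTT2. Of the 50-base coding windows of GSTT1, GSTT3 and GSTT2, 29.9%, 33.5% and 32.9% matched another GST gene within 2 mismatches. The split of reads among the theta genes is therefore uncertain. AT5G44000 ranged from 322 to 383 reads. GSTZ1 and GSTZ2, the zeta genes of tyrosine breakdown, had at most 11 reads, and AT1G77290, AT5G44990 and AT5G45020 at most 6.

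Low reads at some of these loci went along with the number of gene models. The 8 GST loci with a gene model above model 1 in the tables (GSTF4, GSTF6, GSTU9, GSTZ1, AT1G77290, AT4G19880, AT5G44990 and AT5G45020) had a median of 4.00 reads (mean over the libraries), and the other 44 a median of 102. Over all loci the medians were 7.75 for 3920 loci and 56.5 for 18263 loci. Whether this set the level of these genes was not tested, so the places of GSTF4, GSTF6 and GSTU9 in the plots of levels and of clusters are uncertain.

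Many of the GST genes lie in tandem clusters, and neighbours differed in level and response. On chromosome 2, 7 tau genes lie together from GSTU7 (TAIR10, chr2:12617936-12618899, minus strand) to GSTU1 (chr2:12631378-12632473, minus strand). In Col, GSTU5 in the middle of the cluster had 3098 reads, whereas GSTU4 had 1 and GSTU3 had 0. GSTU4 and GSTU3 were called lower in treated npr1-1 than in Col+INA, GSTU6 was called higher, and GSTU7, GSTU5, GSTU2 and GSTU1 were not called. GSTU3 and GSTU4 share 8.27% and 9.74% of their 50-base windows within 2 mismatches, and the other genes of this cluster share under 4%. GSTU17 and GSTU18 are neighbours on chromosome 1, and GSTU18 had 615, 602, 803 and 486 reads where GSTU17 had 3546, 1325, 1899 and 301 in Col, Col+INA, treated npr1-1 and treated hac1/5.

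**Figure D4:**
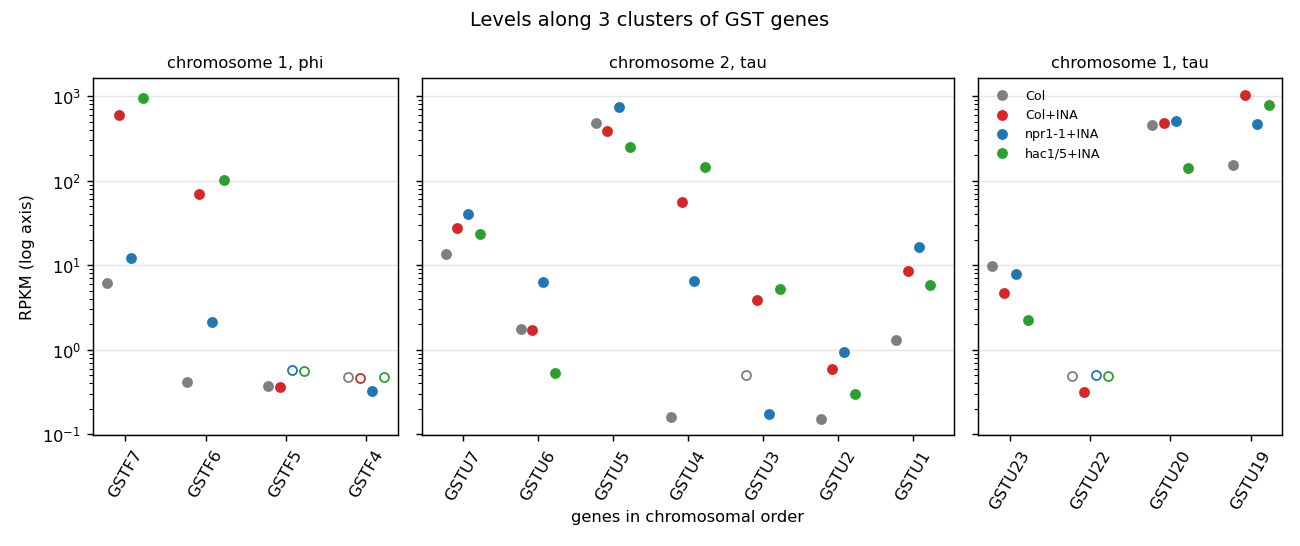
RPKM (vertical log axis) of GST genes in chromosomal order (horizontal axis, not to scale) in 3 clusters, with 1 point per library. Open circles stand for 0 reads and are drawn at the level that 3 reads would give. In the chromosome 2 cluster, GSTU5 lies between 249 and 752 RPKM in every library, and its neighbour GSTU4 between 0.159 and 144 RPKM.

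GSTU20 (chr1:29484269-29485290, minus strand) and GSTU19 (chr1:29486413-29487906, minus strand) follow each other on chromosome 1, with 76.2% identical coding sequences. GSTU19 was 6.86 times higher in Col+INA than in water-treated Col while GSTU20 had a log2 ratio of 0.07, and GSTU20 but not GSTU19 was called lower in treated hac1/5 than in Col+INA, at log2 ratios of -1.76 and -0.40. The 250 bases before the start of each deposited gene model are shown because these neighbours differ in response and yet share the run tgtgacgtaacg of 12 bases. They lie at chr1:29487907-29488156 for GSTU19 and chr1:29485291-29485540 for GSTU20 and were read on the minus strand from the RefSeq sequence TAIR10.1. Capitals mark TGACG, the core bound by TGA factors, on either strand (CGTCA on the other). In both genes the copy within the shared run lies 72 and 71 bases before the start.
GSTU19: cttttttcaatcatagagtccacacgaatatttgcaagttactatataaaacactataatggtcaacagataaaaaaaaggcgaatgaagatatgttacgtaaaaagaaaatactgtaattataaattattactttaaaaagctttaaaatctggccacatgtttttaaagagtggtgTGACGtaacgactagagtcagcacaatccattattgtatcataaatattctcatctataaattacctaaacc
GSTU20: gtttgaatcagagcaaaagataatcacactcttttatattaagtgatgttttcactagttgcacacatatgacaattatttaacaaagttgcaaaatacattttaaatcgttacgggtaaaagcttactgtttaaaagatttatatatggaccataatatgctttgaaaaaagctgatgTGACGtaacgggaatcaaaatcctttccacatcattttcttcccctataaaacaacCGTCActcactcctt

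GSTU7 and GSTU1, at the ends of the chromosome 2 cluster, had 3 and 2 matches to TGACG, the matches of GSTU7 including both strands of the palindrome TGACGTCA. Their windows are shown because they hold the most matches in this cluster, where GSTU6 and GSTU3 had 1 each and the others 0, and they were chosen after the matches were seen. The log2 ratios of treated npr1-1 over Col+INA were 0.53 for GSTU7 and 0.97 for GSTU1 and were not called, although GSTU1 was called higher with TMM factors or DESeq2's size factors. They lie at chr2:12618900-12619149 and chr2:12632474-12632723 and are given on the minus strand.
GSTU7: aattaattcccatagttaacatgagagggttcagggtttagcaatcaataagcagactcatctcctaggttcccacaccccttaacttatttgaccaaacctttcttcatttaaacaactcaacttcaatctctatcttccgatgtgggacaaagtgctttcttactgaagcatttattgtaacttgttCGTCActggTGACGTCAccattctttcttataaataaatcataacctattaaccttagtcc
GSTU1: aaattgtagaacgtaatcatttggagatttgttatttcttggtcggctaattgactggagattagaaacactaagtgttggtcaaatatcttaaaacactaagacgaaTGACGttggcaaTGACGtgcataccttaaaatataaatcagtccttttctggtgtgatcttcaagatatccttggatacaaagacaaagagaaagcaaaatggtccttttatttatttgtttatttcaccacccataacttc

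GSTF2 and GSTF3 are shown as near-identical coding sequences with very unequal reads, and neither had TGACG in its window. They lie at chr4:1111661-1111910 and chr2:852223-852472, both on the minus strand, and share a run of 30 bases, aagaagaagactagtcaatattggttgcga, which holds the W box core TTGAC on the other strand (GTCAA). GSTF6 and GSTF7 likewise share a run of 30 bases before their starts.
GSTF2: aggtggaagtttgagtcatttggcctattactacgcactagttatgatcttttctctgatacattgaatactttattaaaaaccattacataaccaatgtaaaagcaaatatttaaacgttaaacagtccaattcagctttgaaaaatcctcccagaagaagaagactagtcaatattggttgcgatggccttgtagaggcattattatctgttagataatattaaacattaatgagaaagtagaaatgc
GSTF3: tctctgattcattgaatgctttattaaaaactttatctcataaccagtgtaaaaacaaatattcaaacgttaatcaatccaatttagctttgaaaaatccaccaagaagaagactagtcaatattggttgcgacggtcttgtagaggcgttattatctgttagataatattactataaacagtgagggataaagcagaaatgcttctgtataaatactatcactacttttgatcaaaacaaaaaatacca

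Over the 52 GST windows, TGACG on either strand was found in 16 (30.8%), against 21.3% of the windows of all loci. It was present in 11 of 26 tau windows (42.3%) and 3 of 12 phi windows (25.0%, GSTF8, GSTF10 and GSTF13). TTGAC, the core of the W box bound by WRKY factors, was found on either strand in 33 of the 52 windows (63.5%) and in 44.8% of the windows of all loci. The letters TTGACG hold both motifs. A match describes these letters only, and windows without one draw nothing about a factor.

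Genes that make, move or use glutathione were taken from lists chosen by function. Their counts stand beside the same backgrounds as above, which were 13.9% higher and 8.49% lower for Col+INA over Col, 13.1% lower for treated npr1-1 over Col+INA and 5.79% lower for treated hac1/5 over Col+INA. Of 13 genes of glutathione synthesis, reduction and turnover, 12 were listed, and 1 was higher and 1 lower in Col+INA than in water-treated Col. GSH1 had at most 1 read in any library, and GGT1 and GGT4 at most 14, so the missing calls of these genes say little. In treated npr1-1, 1 of the 12 was higher than in Col+INA (background 10.7%) and 2 were lower. In treated hac1/5, 1 was higher than in Col+INA (background 3.81%) and 1 was lower. Phytochelatin synthase PCS1, which also trims glutathione conjugates, had 326, 1170, 337 and 1389 reads in water-treated Col, Col+INA, treated npr1-1 and treated hac1/5. It was the gene called higher in Col+INA than in water-treated Col, and it was called lower in treated npr1-1 than in Col+INA. The gene called lower in Col+INA than in water-treated Col was GGCT2;2, of the family that degrades glutathione, with 246, 17, 346 and 41 reads. GGCT2;2 was called higher than in Col+INA in both treated mutants. GGCT2;1, with 24, 23, 5 and 2 reads, was called lower than in Col+INA in both. Glutathione reductase 2 (GR2), which regenerates glutathione in plastids and mitochondria, had 3390 to 4471 reads. Among 7 transporter genes, only the vacuolar conjugate pump ABCC3 was called higher in Col+INA than in water-treated Col. It had 22, 53, 16 and 84 reads and was the only one called lower in treated npr1-1 than in Col+INA. ABCC1, ABCC2, CLT1 and CLT2 had at most 23 reads in any library, so their missing calls say little. Of 8 glutathione peroxidase-like genes, 3 were called higher in Col+INA than in water-treated Col. GPX8 led them with 89, 419, 103 and 437 reads in water-treated Col, Col+INA, treated npr1-1 and treated hac1/5, beside GPX5 and GPX6. In treated npr1-1, 4 peroxidase-like genes were lower than in Col+INA, these 3 and GPX2. In treated hac1/5 2 were lower, GPX2 and GPX7. Of the 7 TGA factor genes, TGA7 was called higher in Col+INA than in water-treated Col, with 114, 268, 79 and 179 reads. TGA3 and TGA7 were called lower in treated npr1-1 than in Col+INA, TGA3 with 375, 713, 183 and 1034 reads. TGA1, TGA2, TGA5 and TGA6 had at most 6 reads in Col+INA. The study detected TGA2/5 protein by immunoblot, so these counts do not show that the factors are absent. Over all loci, those with a gene model above model 1 had a median of 7.75 reads, against 56.5 for the rest. Whether this set the counts of the TGA genes and of GSH1 was not tested.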

How the data were processed

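RNA-seq libraries of water-treated Col leaves and of INA-treated Col, npr1-1 and hac1/5 leaves were used. According to its methods, the study used SOAPaligner/soap2 for alignment, with at most 2 mismatches. The authors deposited 3 tables, each for 2 libraries, with the read counts per gene model as whole numbers without normalization. RPKM, as deposited, divides the counts by model length and library sum, and recomputed values differed by at most 5.8e-08 in log2. The annotation version, the read length and how reads fitting several models were counted are not given in the sources used here. The log2 ratio, p-value and FDR columns hold the authors' own comparisons and were not used.

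The tables were joined by gene model (25931 models, 22183 loci), and a model absent from a table had 0 reads in its libraries. For each model the reads of a pair of libraries were compared by an exact binomial test (two-sided), adjusted by Benjamini-Hochberg over the pair. Intervals are Clopper-Pearson for ratios and exact Poisson for shares. Ratios used 3 reads in place of a count of 0, and medians were taken over loci with at least 10 reads in a library of the pair. Members and lists were chosen with earlier results of these data known. Values in every library are given for each member with at least 10 reads in a library that was called in a comparison with Col or Col+INA, a range for others with at least 100 reads in a library, and counts for the rest. Coordinates of the 22002 loci found in both overlapped those of RefSeq TAIR10.1 in 99.97% and shared a start or end in 40.8%, so windows are relative to the starts of the deposited models.

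The alternatives were an adjusted p of 0.2, a log2 ratio of 1.5, the exact test of edgeR with an assumed biological variation (BCV) of 0.2 or 0.4, TMM and DESeq2 size factors, log2(RPKM + 1), a filter of at least 10 reads and reads summed over gene models. The binomial test was run on simulated Poisson counts, which hold counting error only, so that run says nothing about variation between plants. Tests were run with SciPy 1.17.1, tables with pandas 2.3.3 and numpy 2.4.6 in Python 3.11.15, plots with matplotlib 3.10.9. The packages edgeR 4.0.16 and DESeq2 1.42.0 (in R 4.3.3) served for alternatives only.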

Additional observations from a re-analysis of the deposited data

Results flagged for a closer look

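Of the GST genes, 4 were called in opposite directions in the mutants when each was compared with Col+INA, and the direct comparison of hac1/5+INA with npr1-1+INA was called for each. Genes chosen in this way must differ between the mutants, so the direct call is no further support. The log2 ratio of hac1/5+INA over npr1-1+INA was 4.45 for GSTU4 and 3.95 for GSTU10, both lower in npr1-1+INA and higher in hac1/5+INA than in Col+INA. It was -5.20 for GSTF12 and -3.43 for AT5G12110, with more reads than Col+INA in npr1-1+INA and fewer in hac1/5+INA. Each value compares 1 library with 1 library, and mutants without INA were not part of the comparison. The calls of GSTU4 and GSTU10 in hac1/5+INA over Col+INA were lost when a biological variation of 0.2 was assumed.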

How the results depend on the processing

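No paired analysis was possible because each condition has 1 library and the labels give no replicate numbers, and for the same reason no library could be left out. An assumed biological coefficient of variation moved most counts of called GST genes. With 0.4, Col+INA over Col gave 6 higher and 0 lower genes, npr1-1+INA over Col+INA 0 higher and 4 lower, hac1/5+INA over Col+INA 0 higher and 0 lower, npr1-1+INA over Col 0 higher, hac1/5+INA over Col 8 higher and 1 lower, and hac1/5+INA over npr1-1+INA 6 higher and 1 lower. With 0.2, Col+INA over Col gave 1 lower, hac1/5+INA over Col+INA 0 higher and npr1-1+INA over Col 3 higher. A log2 ratio of 1.5 gave 0 lower for Col+INA over Col and 1 higher for hac1/5+INA over Col+INA. Log2(RPKM + 1) gave 1 lower for Col+INA over Col, DESeq2's size factors 5 higher for npr1-1+INA over Col+INA, and an adjusted p of 0.2 gave 10 lower for hac1/5+INA over Col. All other counts stayed within 1.5 times of those reported. Each pair of a named gene and a comparison, called or not, was followed under each alternative. In 1278 outcomes nothing changed, 132 calls were lost, 12 were gained and 0 reversed. The unchanged outcomes include pairs that were never called. Of the losses, 27 came with a biological variation of 0.2 and 73 with 0.4. Several alternatives changed only the test or a threshold and kept the log2 ratio, so a reversal was not possible under them. TMM factors moved the median log2 ratio of all loci from 0.18 to 0.04 for Col+INA over Col and from 0.33 to 0.09 for hac1/5+INA over Col. Under them the calls of GSTU7 and AT5G42150 for Col+INA over Col, of GSTF7 for npr1-1+INA over Col and of AT5G42150 and GSTU8 for hac1/5+INA over Col were lost. Calls were gained for GSTU1 (npr1-1+INA over Col+INA, higher), GSTF9 (hac1/5+INA over Col+INA, lower) and GSTU5 (hac1/5+INA over Col, lower). Without replicates, variation between plants has no estimate, and genes with few reads have wide counting intervals.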
